A study of Mus musculus with 4 samples.

Results

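Interleukin and haematopoietic cytokine receptors were followed across bone marrow cells of wild-type (WT) mice and mice labelled Hif1a-/-. The members were all genes whose symbol begins with Il, a number and r, 1 gene apart, together with the receptor genes Csf2ra, Csf2rb, Csf2rb2, Csf3r, Lifr, Osmr, Crlf2, Ifngr1, Ifngr2, Ifnar1 and Ifnar2. The rule goes by symbol and uses no measured value. They numbered 46 of the 19938 genes that a probe set with a single gene symbol named, and where a gene had several such probe sets the one with the highest mean signal stood for it. Of the 46, 45 encode receptor chains or soluble receptors. The remaining 1, Il1rn, encodes the secreted IL-1 receptor antagonist, a ligand that the symbol rule took in. Il2rg, Il1r1, Il1rl1 and the Il11ra genes were not analysed here.

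The study set WT against Hif1a-/- haematopoietic stem cells (HSCs) on the C57BL/6 background at 8 weeks of age, with 2 arrays per genotype numbered 1 and 2 and called biological replicates. HSCs here are lineage-negative, c-Kit-positive, Sca-1-positive bone marrow cells sorted by flow cytometry, a gate that stem cells share with multipotent progenitors. Hif1a codes for HIF-1 alpha, the subunit of HIF-1 that accumulates when oxygen is low. The labels name no Cre driver, no deleted exon and no pooling of mice, and do not say what a replicate number stands for. Beyond the word biological nothing says that the samples came from separate animals, so p-values measure the spread between these arrays.

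Most of these receptors belong to the class I and class II cytokine receptors, which lack an enzyme of their own and signal through bound Janus kinases (JAKs) and STAT transcription factors. A ligand-specific chain usually pairs with a shared one: the common beta chain for IL-3, IL-5 and GM-CSF, the common gamma chain for IL-2 and its relatives, and gp130 for IL-6 and its relatives. IL-1 and IL-17 receptors are built differently and signal through adaptor proteins such as MyD88 and Act1. In bone marrow, these chains mark and steer lineages, for instance G-CSF receptor in granulocyte formation, IL-3 and IL-5 receptors in basophils, mast cells and eosinophils, and interferon receptors in the response of stem cells to infection.

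All levels below are log2 signals, so a difference of 1 is a doubling of signal, and levels of different genes are not compared. Array medians over all genes lay between 8.54 and 8.56, and over all probe sets between 8.19 and 8.35. Precision is limited by having 4 arrays. A genotype difference had a median standard error of 0.15 over all genes and 0.20 over the receptor genes. The signal of Hif1a itself was 10.37 and 10.99 on the WT arrays and 10.58 and 10.64 on the arrays labelled Hif1a-/-, with overlap, and as a probe set can lie outside a deleted part this does not check the labels. The gate markers were only in part visible: Kit stood at 12.57 and 12.37 on the arrays numbered 1 and 11.51 and 11.32 on those numbered 2, each time with WT first, and Ly6a, the gene of Sca-1, was not analysed here. The arrays separated by number more than by genotype. Of 16 measured stem and progenitor markers 7 were lower on the arrays numbered 2 past the threshold used here, whereas 13 of 18 neutrophil, 9 of 16 mast cell, basophil and eosinophil, 6 of 12 monocyte and macrophage and 9 of 12 dendritic cell markers were higher (limma, adjusted p under 0.05 over all genes). Over all genes 2.93% were lower and 3.81% higher by the same test. Receptor levels are therefore given by genotype and by number.

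No receptor gene passed the test between the genotypes. Of the 46 genes, 0 passed limma's test at an adjusted p under 0.05, where the background over all genes was 0%, and 0 had even an unadjusted p under 0.05, where the background was 0.727%. The smallest unadjusted p among them was 0.143, for the ligand gene Il1rn, followed by 0.158 for Il1rl2. The fit had no term for array number, so differences by number entered the genotype standard errors. That error was 1.25 for Il13ra1, whose difference by number had an SE of 0.14. These counts of 0 therefore do not show that the genotypes were alike. The Hif1a-/- mean was higher for 21 genes and lower for 25, and the median difference was 0.00 log2 units beside 0.00 over all genes. Within the numbers the medians were −0.02 and 0.03. The genotype difference had the same sign in both numbers for 19 genes (41.3%, beside 48.4% of all genes). Both Hif1a-/- arrays exceeded both WT arrays for 2 of the 46 genes and fell below them for 6, against backgrounds of 16.1% and 8.33% of all genes. Together these 8 make up 17.4% of the 46 genes, below the background of 24.5%. Overlap was judged without pairing arrays by number, so a gene with a large difference by number could overlap despite a steady genotype difference.

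The 2 genes on the higher side were Il1rn and Il9r, and neither passed the test. Il1rn had 8.15 and 8.29 on the WT arrays and 8.38 and 8.52 on the arrays labelled Hif1a-/-, a difference of 0.23 (SE 0.13, 95% interval −0.12 to 0.58, unadjusted p = 0.143). Il9r, the ligand-binding chain for the mast cell and T cell cytokine IL-9, read 8.17 and 8.38 on the WT arrays and 8.41 and 8.65 on the arrays labelled Hif1a-/-, a difference of 0.26 (SE 0.16, unadjusted p = 0.173). Both genes differed by almost the same amount in either number, Il1rn by 0.22 in number 1 and 0.23 in number 2, and Il9r by 0.24 in number 1 and 0.28 in number 2.

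On the lower side the groups did not overlap for Il1rl2, Crlf2, Ifnar2, Il5ra, Il22ra2 and Osmr, again without passing. Il1rl2, the receptor of the IL-36 cytokines, had 8.44 and 8.67 on the WT arrays and 8.41 and 7.70 on the arrays labelled Hif1a-/-, a difference of −0.50 (SE 0.29, 95% interval −1.29 to 0.30, unadjusted p = 0.158), or −0.02 in number 1 and −0.97 in number 2, with Hif1a-/- array 2 the lowest. Crlf2, the chain that binds TSLP, gave 10.45 and 10.42 on the WT arrays and 10.33 and 10.15 on the arrays labelled Hif1a-/-, a difference of −0.19 (SE 0.12, unadjusted p = 0.197). For Ifnar2, the type I interferon receptor chain with the higher ligand affinity, the signals were 11.86 and 11.89 on the WT arrays and 11.79 and 11.58 on the arrays labelled Hif1a-/-, a difference of −0.19 (SE 0.13, unadjusted p = 0.220). The Crlf2 difference was −0.0955 under quantile normalization and −0.0908 under cyclic loess. The Ifnar2 difference was −0.1074 and −0.0983 under these, and −0.0822 without Hif1a-/- array 2. Il5ra differed by −0.23, but by −0.0099 without WT array 2 and by −0.4542 without WT array 1. Il22ra2 differed by −0.13 and Osmr by −0.02. Osmr was the steadiest of all the receptor genes, with 7.04 and 7.07 on the WT arrays and 7.03 and 7.04 on the arrays labelled Hif1a-/-. These 3 genes lay among the 9 receptor genes in the dimmest 40% of all genes, where differences on an array are compressed.

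A pair of genes outside that set had the largest mean differences upward, and in both the sign turned without 1 array. Il2rb, the beta chain shared by the IL-2 and IL-15 receptors, had a genotype difference of 0.69 (SE 1.13, 95% interval −2.46 to 3.84), that is −0.01 in number 1 and 1.40 in number 2, and without Hif1a-/- array 2 the difference was −0.73. Csf2ra, the GM-CSF receptor alpha chain, differed by 0.36 (SE 0.39, 95% interval −0.72 to 1.44), or −0.10 in number 1 and 0.82 in number 2, and without Hif1a-/- array 2 the difference was −0.17. Csf3r, the G-CSF receptor, differed by −0.33 (SE 0.40, 95% interval −1.43 to 0.78), with −0.57 in number 1 and −0.09 in number 2, and the difference without WT array 1 was 0.16. The Csf3r difference thus also turned in sign, and each of the 3 intervals includes 0.

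**Figure D1:**
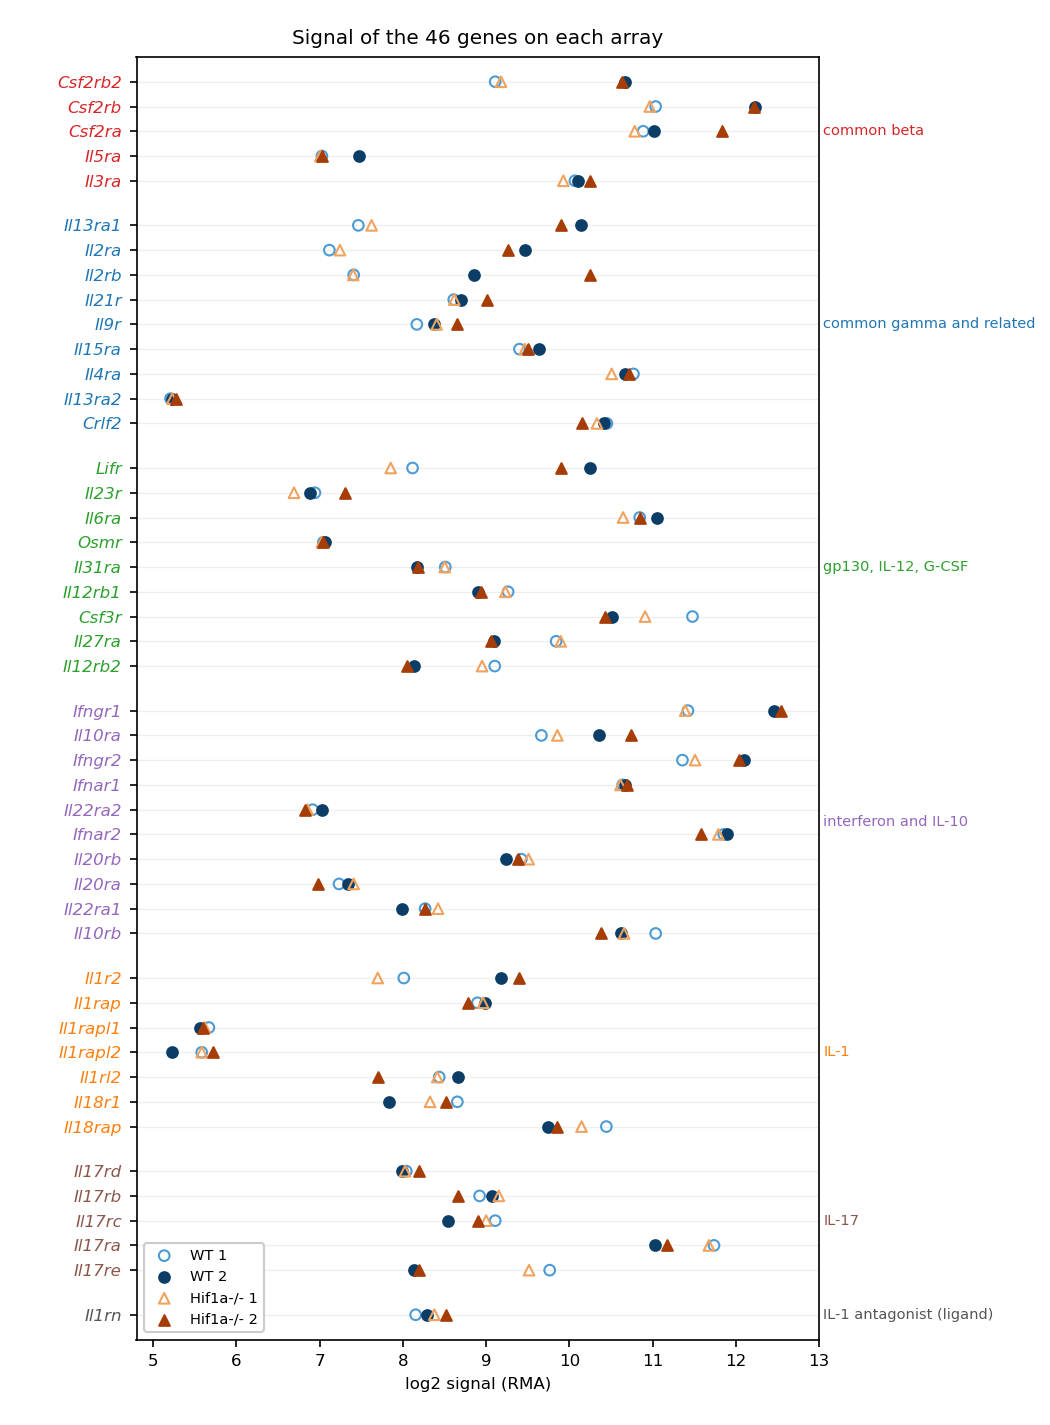
log2 signal of each of the 46 genes (rows, grouped by receptor family) on the 4 arrays, with circles for WT, triangles for Hif1a-/-, open symbols for arrays numbered 1 and filled symbols for arrays numbered 2. For genes such as Il13ra1, Il2ra, Lifr and Csf2rb2 the filled symbols lie well to the right of the open ones, and within a number the genotypes lie close together.

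Between the array numbers, 13 of the 46 genes changed, or 28.3%, where the background was 6.74% of all genes (limma, adjusted p under 0.05). On the arrays numbered 2, 9 were higher (background 3.81%) and 4 lower (background 2.93%). The median over the members was nonetheless 0.04 log2 units, beside −0.02 over all genes. The difference by number was larger in size than the difference by genotype for 34 of the 46 genes (73.9%, beside 60.0% of all genes). It had the same sign in both genotypes for 35 genes (76.1%, beside 59.3%). Both arrays numbered 2 lay above both numbered 1 for 17 genes and below them for 13, with backgrounds of 20.4% and 27.2%. In a bulk sample, a change in the share of cells that carry a transcript and a change in RNA per cell cannot be told apart.

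**Figure D2:**
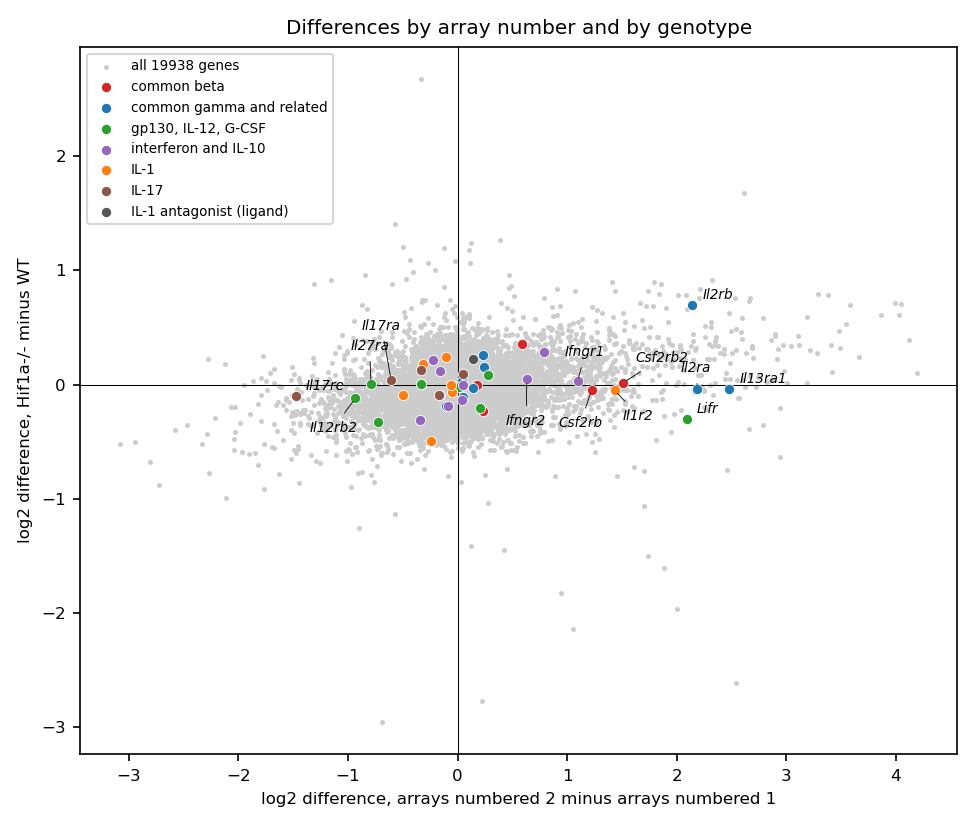
log2 difference between array numbers (x axis, number 2 minus number 1) and between genotypes (y axis, Hif1a-/- minus WT) for all 19938 genes (grey) and for the 46 members, coloured by family, with names for the 13 that passed the test by number. The members spread from −1.48 to 2.48 along the x axis and from −0.50 to 0.69 along the y axis.

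In the common beta chain family, both beta chains rose and the alpha chains did not pass. Csf2rb, the beta chain shared by the IL-3, IL-5 and GM-CSF receptors, had signals of 11.04 and 10.97 on the arrays numbered 1 and 12.24 and 12.22 on those numbered 2, with WT first in each pair here and below. The difference was 1.22 (SE 0.11, 2.33-fold, adjusted p = 0.00487), or 1.20 within WT and 1.25 within Hif1a-/-. Csf2rb2, a second beta chain that mice use for IL-3 alone, stood at 9.11 and 9.18 on the arrays numbered 1 and 10.67 and 10.63 on those numbered 2. This gene differed by 1.51 (SE 0.11, 2.84-fold, adjusted p = 0.00365), or 1.56 within WT and 1.45 within Hif1a-/-. The genotypes were nearly level within each number, and the 2 numbers did not overlap. The genes are near-identical neighbours, and an array may not fully separate their transcripts, so the 2 rises may not be independent. Among the alpha chains, Il3ra read 10.07 and 9.93 on the arrays numbered 1 and 10.11 and 10.24 on those numbered 2, a difference of 0.18 (SE 0.12, adjusted p = 0.547). Csf2ra gave 10.89 and 10.79 on the arrays numbered 1 and 11.02 and 11.83 on those numbered 2, a difference of 0.59 (SE 0.27, adjusted p = 0.315), with only Hif1a-/- array 2 standing clear of the others. The Csf2ra difference was 1.00 without WT array 2 and 0.18 without Hif1a-/- array 2. Il5ra, the IL-5 receptor of eosinophils, gave 7.03 and 7.01 on the arrays numbered 1 and 7.47 and 7.03 on those numbered 2, a difference of 0.23 (SE 0.17, adjusted p = 0.590), with only WT array 2 higher. The Il5ra difference was 0.01 without WT array 2 and 0.45 without Hif1a-/- array 2.

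The common gamma chain and related family held the largest rises, in 3 of its 9 measured genes, where 3.81% of all genes rose. Il13ra1, which joins the IL-4 receptor alpha chain in the receptor for IL-4 and IL-13, had 7.47 and 7.62 on the arrays numbered 1 and 10.14 and 9.90 on those numbered 2. The difference was 2.48 (SE 0.14, 5.56-fold, adjusted p = 0.00237), or 2.67 within WT and 2.28 within Hif1a-/-. Il2ra, or CD25, the chain that gives the IL-2 receptor its high affinity, had 7.12 and 7.24 on the arrays numbered 1 and 9.47 and 9.27 on those numbered 2. It differed by 2.19 (SE 0.13, 4.56-fold, adjusted p = 0.00265), or 2.35 within WT and 2.02 within Hif1a-/-. For both genes the low pair and the high pair of arrays were far apart and each pair was tight. Il2rb read 7.41 and 7.40 on the arrays numbered 1 and 8.85 and 10.25 on those numbered 2, a difference of 2.14 (SE 0.42, 4.41-fold, adjusted p = 0.0432). Its arrays numbered 1 were level and its arrays numbered 2 were spread, with Hif1a-/- highest, and the call ended without WT array 1 (adjusted p = 0.117) or Hif1a-/- array 1 (0.0987) and under quantile normalization (0.0535). The partner chain Il4ra did not pass, with 10.77 and 10.51 on the arrays numbered 1 and 10.67 and 10.72 on those numbered 2, a difference of 0.05 (SE 0.13, adjusted p = 0.913). Il15ra, which presents IL-15 to cells with Il2rb, gave 9.40 and 9.47 on the arrays numbered 1 and 9.64 and 9.51 on those numbered 2, a difference of 0.14 (adjusted p = 0.642). The other four of the family, Il21r, Il9r, Crlf2 and the IL-13 decoy receptor Il13ra2, differed by 0.24, 0.23, −0.11 and 0.04, and none passed.

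Receptors related to gp130, together with those of IL-12 and G-CSF, moved in both directions. Lifr, the LIF receptor chain that pairs with gp130, had 8.12 and 7.85 on the arrays numbered 1 and 10.25 and 9.90 on those numbered 2. The difference was 2.09 (SE 0.17, 4.26-fold, adjusted p = 0.00421), or 2.13 within WT and 2.05 within Hif1a-/-, and the numbers were far apart in either genotype. Il12rb2, the signalling chain of the IL-12 receptor, fell, with 9.10 and 8.95 on the arrays numbered 1 and 8.14 and 8.05 on those numbered 2. It was 1.91-fold lower on the arrays numbered 2 (difference −0.93, SE 0.12, adjusted p = 0.0121). Il27ra, the IL-27 receptor chain, also fell, with 9.84 and 9.90 on the arrays numbered 1 and 9.10 and 9.06 on those numbered 2. It was 1.73-fold lower (difference −0.79, SE 0.11, adjusted p = 0.0149). Without WT array 1 the calls of Il12rb2 and Il27ra ended (adjusted p = 0.136 and 0.153), as they did without Hif1a-/- array 1 (0.0710 and 0.162). Il12rb1, shared by the IL-12 and IL-23 receptors, and Il31ra, the IL-31 receptor chain that pairs with Osmr, were at −0.33 and −0.33 and did not pass (adjusted p = 0.160 and 0.158). Csf3r read 11.48 and 10.91 on the arrays numbered 1 and 10.51 and 10.43 on those numbered 2, a difference of −0.73 (SE 0.20, adjusted p = 0.108). Both arrays numbered 2 lay below both numbered 1, and the difference ranged from −1.01 to −0.44 with an array left out. On the arrays numbered 2, 13 of 18 neutrophil markers were higher, and how Csf3r relates to them was not tested. Il6ra, the IL-6 receptor, gave 10.85 and 10.65 on the arrays numbered 1 and 11.06 and 10.85 on those numbered 2, a difference of 0.21 (adjusted p = 0.532), and Osmr and Il23r differed by 0.02 and 0.28.

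Of the interferon receptors, both chains for interferon gamma rose, while neither chain for type I interferon passed. Ifngr1, the chain that binds interferon gamma, had 11.43 and 11.39 on the arrays numbered 1 and 12.46 and 12.55 on those numbered 2. The difference was 1.10 (SE 0.11, 2.14-fold, adjusted p = 0.00645), or 1.04 within WT and 1.16 within Hif1a-/-. Ifngr2, its signalling partner, had 11.36 and 11.51 on the arrays numbered 1 and 12.10 and 12.04 on those numbered 2, a difference of 0.63 (SE 0.12, 1.55-fold, adjusted p = 0.0363). The Ifngr1 call ended without WT array 1 (adjusted p = 0.0637) or Hif1a-/- array 1 (0.0571), and so did the Ifngr2 call (0.419 and 0.201), which also ended with genotype as a covariate (0.0719) and with eBayes fitted with trend and robust (0.0585). For type I interferon, Ifnar1 stood at 10.64 and 10.62 on the arrays numbered 1 and 10.67 and 10.69 on those numbered 2, a difference of 0.05 (95% interval −0.21 to 0.32). Ifnar2 differed by −0.09 (95% interval −0.44 to 0.26), and by 0.07 without Hif1a-/- array 2. Both intervals lie below the size of the Ifngr1 difference, although the difference between the genes was not tested. In the related IL-10 family, Il10ra, the ligand-binding chain for IL-10, fell just short, with 9.66 and 9.86 on the arrays numbered 1 and 10.35 and 10.74 on those numbered 2 and a difference of 0.79 (SE 0.17, adjusted p = 0.0522). Il10rb, the chain shared with the IL-22 receptor, was at −0.34 (adjusted p = 0.366), and Il20ra, Il20rb, Il22ra1 and Il22ra2, the last a soluble IL-22 binding protein, lay between −0.22 and 0.04 and did not pass.

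In the IL-1 family the decoy receptor alone rose. Il1r2, which binds IL-1 without signalling and is made by neutrophils among other cells, had 8.01 and 7.70 on the arrays numbered 1 and 9.18 and 9.39 on those numbered 2. The difference was 1.43 (SE 0.15, 2.70-fold, adjusted p = 0.00779), or 1.17 within WT and 1.70 within Hif1a-/-, and the 2 numbers did not overlap. Il1rap, the accessory chain of the IL-1, IL-33 and IL-36 receptors, was at 8.90 and 8.96 on the arrays numbered 1 and 8.98 and 8.78 on those numbered 2, a difference of −0.05 (SE 0.12, adjusted p = 0.916). The IL-18 receptor chains Il18rap and Il18r1 were at −0.50 (adjusted p = 0.118) and −0.32 (adjusted p = 0.617). Il18rap lay lower on both arrays numbered 2, with 10.45 and 10.15 on the arrays numbered 1 and 9.74 and 9.86 on those numbered 2. Its difference ranged from −0.65 to −0.35 with an array left out. Il1rl2, Il1rapl1 and Il1rapl2, of which the latter 2 are known from neurons, differed by −0.24, −0.06 and −0.11. The antagonist gene Il1rn differed by 0.14 (adjusted p = 0.746).

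Of the 5 IL-17 receptor genes, 2 fell and none rose, where 2.93% of all genes fell and 3.81% rose. Il17re, the receptor chain for IL-17C, had 9.76 and 9.52 on the arrays numbered 1 and 8.14 and 8.19 on those numbered 2. It was 2.78-fold lower on the arrays numbered 2 (difference −1.48, SE 0.13, adjusted p = 0.00480), or −1.63 within WT and −1.33 within Hif1a-/-. Il17ra, the chain shared by the IL-17 receptors, had 11.74 and 11.68 on the arrays numbered 1 and 11.03 and 11.17 on those numbered 2, a difference of −0.61 (SE 0.12, adjusted p = 0.0398). Of the 13 calls, that of Il17ra ended under the most alternatives. It was lost without WT array 1 (adjusted p = 0.403) or Hif1a-/- array 1 (0.276), under cyclic loess (0.0899), with genotype as a covariate (0.0795) and with eBayes fitted with trend and robust (0.0704). Il17rc, the partner of Il17ra for IL-17A, was at −0.33 (adjusted p = 0.332), and Il17rb and Il17rd were at −0.17 and 0.05. Across all families, 7 of the 13 calls (Il13ra1, Il2ra, Csf2rb2, Lifr, Csf2rb, Il1r2 and Il17re) held under each of the 11 alternatives that were run. The count of 13 was 7 without WT array 1, 7 without Hif1a-/- array 1, 21 without WT array 2 and 21 without Hif1a-/- array 2.

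**Figure D3:**
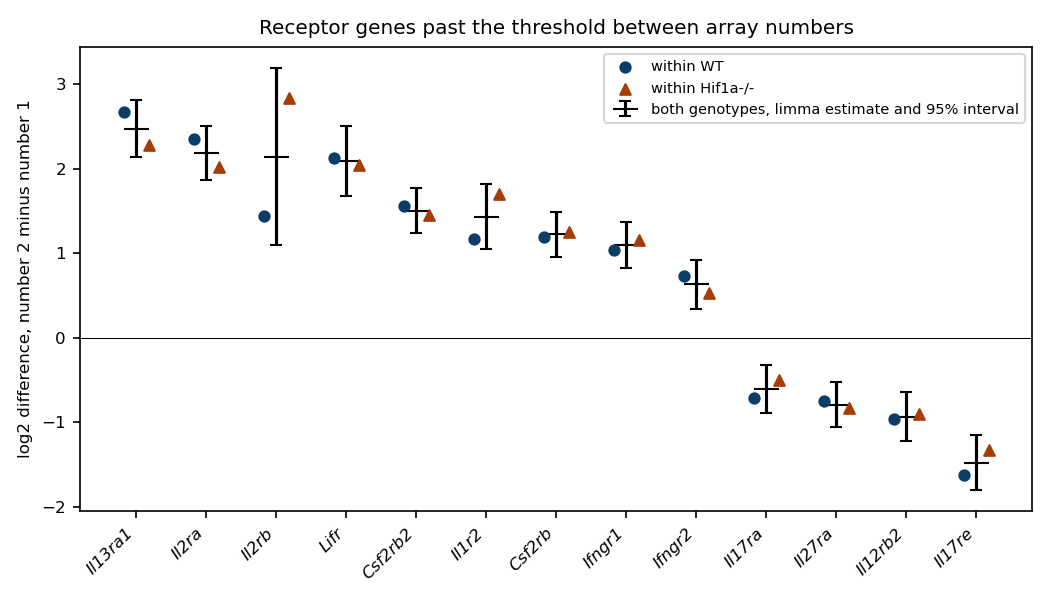
log2 difference between arrays numbered 2 and 1 for the 13 receptor genes past the threshold, as the limma estimate over all 4 arrays with its 95% interval (black) and as the difference within WT (circles, 1 array against 1) and within Hif1a-/- (triangles, 1 against 1). Both genotypes lie on the same side of 0 for every gene shown, and they differ most for Il2rb, with 1.44 within WT and 2.84 within Hif1a-/-.

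Promoter sequences were set beside these receptor genes because the called genes differed between the same arrays. Of the 46 genes, 38 had 44 windows before a RefSeq transcript start (GRCm38.p6), among them 9 of the 13 called genes. The 250 bases before the start are shown, 5′ to 3′, for the 4 called genes of smallest p that have 1 window, which begins at the outer end of the gene. They are Il13ra1 (chrX:36111858-36112107, plus strand), Il2ra (chr2:11642542-11642791, plus strand), Csf2rb2 (chr15:78305722-78305971, minus strand) and Ifngr1 (chr10:19591699-19591948, plus strand), and capitals mark the motif matches described next.
Il13ra1: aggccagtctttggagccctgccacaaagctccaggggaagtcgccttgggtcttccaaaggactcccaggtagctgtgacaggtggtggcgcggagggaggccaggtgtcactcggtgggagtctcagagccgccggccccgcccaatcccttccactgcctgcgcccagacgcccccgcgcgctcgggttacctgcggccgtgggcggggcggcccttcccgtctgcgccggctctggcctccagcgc
Il2ra: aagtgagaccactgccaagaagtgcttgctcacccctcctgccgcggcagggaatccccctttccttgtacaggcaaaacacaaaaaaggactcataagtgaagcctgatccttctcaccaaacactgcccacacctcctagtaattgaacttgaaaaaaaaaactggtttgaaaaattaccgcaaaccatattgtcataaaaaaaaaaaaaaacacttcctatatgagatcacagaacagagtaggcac
Csf2rb2: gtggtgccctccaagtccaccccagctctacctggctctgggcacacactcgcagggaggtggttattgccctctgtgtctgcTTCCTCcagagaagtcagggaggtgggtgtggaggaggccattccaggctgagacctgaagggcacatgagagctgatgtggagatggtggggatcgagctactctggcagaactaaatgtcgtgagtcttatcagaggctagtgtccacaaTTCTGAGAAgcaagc
Ifngr1: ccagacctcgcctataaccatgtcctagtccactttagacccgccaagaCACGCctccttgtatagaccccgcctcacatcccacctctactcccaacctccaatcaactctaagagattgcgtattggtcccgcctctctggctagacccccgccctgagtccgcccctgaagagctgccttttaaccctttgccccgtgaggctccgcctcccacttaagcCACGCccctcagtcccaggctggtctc

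The windows were searched on both strands for the ETS core GAGGAA of factors such as PU.1, the GATA motif AGATAA, the STAT motif TTCNNNGAA and the hypoxia response core ACGTG or GCGTG, which HIF-1 binds. ACGTG read on both strands overlaps itself in CACGTG. None of the 4 motifs was found in the windows of Il13ra1 and Il2ra, the genes with the largest rises. Csf2rb2 held 1 ETS match and 1 STAT match, and Ifngr1 held 2 hypoxia cores. Over the receptor windows the hypoxia core occurred in 40.9% beside 38.6% of all promoter windows of this length. The ETS core occurred in 36.4% beside 23.3%, the GATA motif in 13.6% beside 9.99%, and the STAT motif in 13.6% beside 7.02%. Among the 8 windows of the genes that rose, 3 held a hypoxia core, 2 a STAT motif, 1 an ETS core and 0 the GATA motif. These are matches of letters in short windows and say nothing of binding.

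Several receptor genes lie next to each other in the mouse genome (gene order of GRCm38.p6). Lifr, with 2.09, lies beside Osmr, with 0.02. Il2ra, with 2.19, lies beside Il15ra, with 0.14. In the cluster of Ifnar2, Il10rb, Ifnar1 and Ifngr2 on chromosome 16, the values in that order were −0.09, −0.34, 0.05 and 0.63, and the last alone passed. Ifngr1 on chromosome 10, with 1.10, is followed by Il22ra2 and Il20ra, with 0.04 and −0.16. Il12rb2, with −0.93, lies beside Il23r, with 0.28, and Il17re, with −1.48, beside Il17rc, with −0.33. Csf2rb and Csf2rb2 were the neighbours that both passed. Of the pairs named, differences between neighbours were not tested.

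At the other end, 8 of the 46 genes ranged by less than 0.25 log2 units over the 4 arrays (17.4%, beside 33.9% of all genes), and 13 ranged by more than 1 (28.3%, beside 7.06%). Apart from Osmr the steady ones were Ifnar1, Il1rap and Il15ra, and the dim genes Il13ra2, Il1rapl1, Il17rd and Il22ra2. The median range was 0.49 for receptor genes and 0.34 over all genes.

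Some signalling genes downstream of these receptors also differed by number. Whether single calls in the pathway and marker lists below held under the alternatives was not examined. Of the 18 measured JAK and STAT pathway genes, 2 rose and 1 fell (16.7%, where the background was 6.74% of all genes), with a median of −0.03. Jak2, the kinase bound to the common beta chain and to Ifngr2, rose by 1.07 (SE 0.14, adjusted p = 0.0123), with 10.34 and 10.30 on the arrays numbered 1 and 11.25 and 11.53 on those numbered 2. Tyk2, a kinase of the type I interferon and IL-12 receptors, rose by 0.90 (SE 0.15, adjusted p = 0.0264). Stat4, the factor that IL-12 activates, had 11.33 and 11.34 on the arrays numbered 1 and 10.38 and 10.08 on those numbered 2, a difference of −1.10 (SE 0.14, adjusted p = 0.0117). It fell in the same arrays as the IL-12 receptor chain Il12rb2. Stat5b, which the common beta and gamma chain receptors activate, differed by −0.58 and did not pass (adjusted p = 0.161). The gp130 gene Il6st differed by −0.12 (adjusted p = 0.864).

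Of 14 SOCS and STAT feedback genes, 2 rose and 0 fell (14.3%, background 6.74%). Bcl6, a transcriptional repressor, rose by 1.88 (SE 0.18, adjusted p = 0.00578) and Bcl3 by 0.83 (adjusted p = 0.0185). Cish and Socs5, which encode inhibitors of cytokine signalling, were at −0.40 and −0.34 and did not pass. Among 14 adaptors of the IL-1 and IL-17 receptors, Myd88 alone passed, with 10.51 and 10.43 on the arrays numbered 1 and 11.55 and 11.58 on those numbered 2 and a rise of 1.09 (SE 0.11, adjusted p = 0.00645). This 1 of 14 is 7.14%, near the background of 6.74%. Irak2 was at 0.39, Sigirr at −0.34 and Traf3ip2, the gene of the IL-17 receptor adaptor Act1, at −0.32. Of 33 cytokine genes, 22 of them in the dimmest 40% of all genes, 4 passed (12.1%, background 6.74%). Il6 and Il1b rose by 1.12 and 0.89 (adjusted p = 0.0103 and 0.0157). Il12a and Il15 fell, with differences of −1.51 and −0.81 (adjusted p = 0.0113 and 0.0394). Il12a encodes the p35 chain of IL-12 and IL-15 is the ligand that Il15ra and Il2rb bind.

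Among 14 other receptors of blood-forming cytokines and growth factors, 1 rose and 3 fell (28.6%, background 6.74%). Epor, the erythropoietin receptor, rose by 0.55 (adjusted p = 0.0430). Kit, the stem cell factor receptor, and Flt3, a receptor of early progenitors, fell, with differences of −1.06 (adjusted p = 0.0121) and −0.84 (adjusted p = 0.0162), and the third was Pdgfrb, with −1.90 (adjusted p = 0.0182). Csf1r, the macrophage receptor of M-CSF, was at 0.53 and did not pass (adjusted p = 0.162).

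Between the genotypes 0 genes of these 5 lists passed limma's test, and 0 had an unadjusted p under 0.05. The medians were −0.05 for JAK and STAT genes, −0.05 for feedback genes, −0.03 for adaptors, −0.11 for other receptors and 0.04 for cytokines. In the first list Ptprc and Stat2 were at 0.26 and 0.39 and Il6st and Stat5a at −0.33 and −0.23. The feedback genes with the smallest p were Socs2 at 0.33 and Socs4 at 0.08, and Socs6 at −0.43 and Pim1 at −0.20 on the lower side. For the adaptors they were Traf5 at 0.17 and Traf3ip2 at 0.15, and Irak3 at −0.28 and Tollip at −0.20, both of which restrain IL-1 receptor signalling. Cntfr and Lepr were at 0.07 and 0.05, Tnfrsf1a and Ghr at −0.20 and −0.11. The cytokine genes were Ifng at 0.27, Il12b at 0.45, Il10 at −0.41 and Ebi3 at −0.20.

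Markers of several lineages moved with the array number beside the receptor genes. The lists do not mark mature cells alone, as Flt3 stands in both the stem and progenitor list and the dendritic cell list. Summed over the list on the linear scale, signal of the neutrophil and granule markers was 34451 to 41448 on the arrays numbered 1 and 81134 to 108797 on those numbered 2. For mast cell, basophil and eosinophil markers it was 8284 to 10086 on the arrays numbered 1 and 26306 to 26534 on those numbered 2, for monocyte and macrophage markers 8999 to 9397 on the arrays numbered 1 and 20306 to 20934 on those numbered 2, and for dendritic cell markers 20022 to 23158 on the arrays numbered 1 and 60586 to 74625 on those numbered 2. Stem and progenitor markers summed to 38086 to 41947 on the arrays numbered 1 and 16409 to 22214 on those numbered 2. Every one of these sums separated the numbers without overlap. T and NK cell markers, of which 3 of 17 passed, summed to 9522 to 10016 on the arrays numbered 1 and 12713 to 15018 on those numbered 2, B cell markers, of which 0 of 13 passed, to 11471 to 26752 on the arrays numbered 1 and 11062 to 17015 on those numbered 2, and erythroid and megakaryocyte markers, with 1 of 10 higher and 1 lower, to 12974 to 13786 on the arrays numbered 1 and 10939 to 16505 on those numbered 2. Between the genotypes 0 of these markers passed limma's test. B cell markers were higher in the Hif1a-/- mean for 13 of 13, of which 6 had an unadjusted p under 0.05 (background 0.727% of all genes). For 10 of the 13 (76.9%, beside 16.1% of all genes) both Hif1a-/- arrays lay above both WT arrays. By genotype, the B cell sums were 11471 and 11062 on the WT arrays and 26752 and 17015 on the arrays labelled Hif1a-/-. Stem and progenitor markers were lower in the Hif1a-/- mean for 16 of 16 and erythroid and megakaryocyte markers for 10 of 10, with 0 at an unadjusted p under 0.05 in either list. Over all 19938 genes 9843 were lower. In both lists the genotypes overlapped for every marker. The median genotype difference was −0.15 in number 1 and −0.35 in number 2 for stem and progenitor markers. For erythroid and megakaryocyte markers it was 0.10 in number 1 and −0.46 in number 2. A log2 array signal has no true 0, so no marker can be called absent. The part of such cells in the receptor differences was not tested, and the labels do not say whether the numbers mark different mice, days or sorts.

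**Figure D4:**
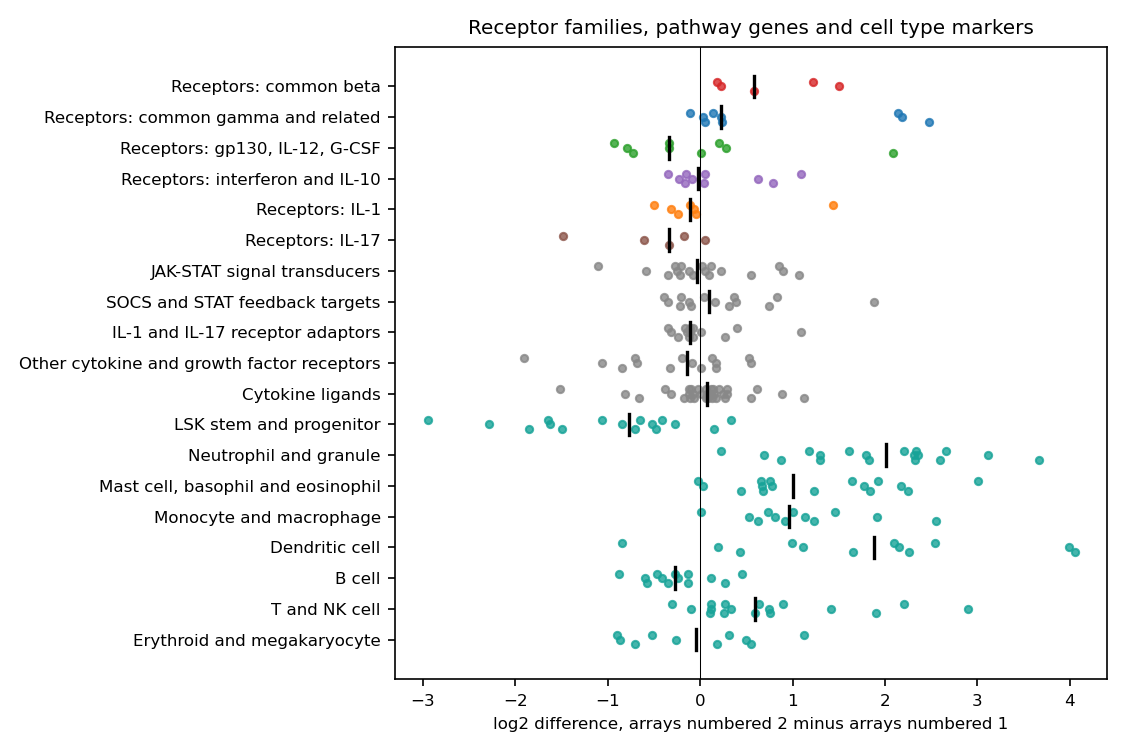
log2 difference between arrays numbered 2 and 1 (x axis) for each measured gene (points) of the receptor families (coloured), the pathway lists (grey) and the cell type markers (green), with the median of each list as a black bar. Receptor families have medians between −0.33 and 0.59 with single genes far out, while the median is 2.01 for neutrophil, 1.88 for dendritic cell and −0.77 for stem and progenitor markers.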

How the data were processed

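Total RNA from sorted cells was labelled with biotin for whole-transcript arrays, per the labels' protocols. Per the submitters' processing notes, the authors used Affymetrix Expression Console 1.1 and RMA, and they deposited 1 log2 signal per probe set and array. The log base is read from the range of the values, 3.08 to 14.88. The deposited arrays do not share 1 distribution exactly. For the array's genome build, the sources used here give none. Array number, not depth, limits the precision.

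Of 35556 probe sets, 21789 had 1 symbol in the platform annotation, 1621 several and 12146 none. The probe set with the highest mean stood for a gene. In R 4.3.3, limma 3.58.1 (lmFit, then eBayes, without covariates) compared genotypes and, separately, array numbers, two-sided, with Benjamini-Hochberg adjustment over all 19938 genes. The fit was tested on simulated data with independent noise. In the genotype runs these data held no difference by array number. They therefore cannot check the genotype test where the numbers differ. All 46 receptor genes were found in the RefSeq gene table by gene ID.

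Named are receptor genes past 0.05, up to 12 per direction, filled to 6 by smallest p among genes without overlap between the groups. A fixed set of 11 receptor genes (the common beta family, Csf3r, Il6ra and the interferon receptors) and up to 2 genes per direction of each pathway list were added. Il2rb and Csf2ra in the genotype comparison, and members beyond the rule, were named after their values were seen. Members, lists and tests were chosen with earlier results of these data known. The alternatives tried were each array omitted, cyclic loess, median centring, quantile normalization, eBayes with trend and robust, probe sets averaged per gene, the dimmest 40% of genes omitted, and the other factor (replicate number as block, or genotype) as a covariate.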

Additional observations from a re-analysis of the deposited data

Results flagged for a closer look

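For 5 receptor genes the differences within the 2 numbers, or within the 2 genotypes, pointed opposite ways by at least 0.2 log2 units each, a minimum set after the data were seen. The genotype difference of Il18r1 was −0.33 in number 1 and 0.69 in number 2, that of Il17rb 0.23 in number 1 and −0.41 in number 2, that of Il23r −0.25 in number 1 and 0.42 in number 2, and that of Il1r2 −0.31 in number 1 and 0.21 in number 2. For Il1rl2 the difference by array number was 0.23 within WT and −0.72 within Hif1a-/-. These contrasts rest on 1 array against 1, which leaves 0 residual degrees of freedom, so the difference was not tested.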

How the results depend on the processing

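Between the genotypes, the count of receptor genes and of all genes past the threshold was 0 under every alternative run. With the replicate number as a block it was also 0 of 46 and 0 of 19938. Deviations of same-numbered arrays from their group means correlated at 0.67 across genes. With 2 numbers and no label for what they mark, the arrays are known to share only a number. The median genotype difference of receptor genes ranged from −0.0474 to 0.0453 with an array left out. With an array left out, the genotype difference ranged from −0.73 to 2.12 for Il2rb, from −0.17 to 0.88 for Csf2ra and from −0.81 to 0.16 for Csf3r. It was −0.03 for Il2rb without WT array 1. With no change of sign it ranged from −0.85 to −0.14 for Il1rl2, from 0.13 to 0.38 for Il9r, from −0.28 to −0.10 for Crlf2, from −0.2961 to −0.0822 for Ifnar2, from −0.4542 to −0.0099 for Il5ra and from −0.1893 to −0.0746 for Il22ra2. By array number, leaving out an array gave 7 to 21 receptor genes and 319 to 4661 genes in all, beside 13 and 1344, and a median of 0.0100 to 0.0419 beside 0.04. The counts were lower without either array numbered 1 and higher without either array numbered 2. The Ifnar2 difference ranged from −0.2457 to 0.0689. The other alternatives gave 11 to 13 receptor genes and 1108 to 1450 in all. The receptor median by number was 0.0278 under quantile normalization, 0.0596 under median centring, 0.0456 under cyclic loess and 0.0522 without the dimmest genes. The causes were not tested. With 1 array left in an arm, that array was assumed to vary like the others.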

Other observations

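For 3 of the 46 genes other probe sets exist beside the one used. By array number, the other probe set of Il17rd differed by 0.19 beside 0.05, that of Il22ra1 by 0.07 beside −0.22, and the 2 of Il20rb by −0.04 and −0.02 beside −0.16. The probe sets of Il22ra1 thus disagreed in sign, and none of these genes had passed the test.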
